A study of Homo sapiens with 6 samples.

Results

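Aldo-keto reductases are soluble enzymes that use NADPH to turn aldehydes and ketones into alcohols. The 6 genes described here, AKR1A1, AKR1B1, AKR1B10, AKR1C1, AKR1C2 and AKR1C3, were taken by symbol from the 23059 genes of the deposited tables, and all 6 had a row there. They were measured by RNA-seq in HCC-LM3, a line grown from a human liver cancer and known to spread readily in mice. The groups were 3 samples treated with apigenin, a plant flavone, and 3 samples given DMSO as the control, all of the same line. The labels call the samples biological replicates and do not say whether they were grown separately, so p-values measure the spread between these samples. Neither dose nor exposure time stands in the labels.

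AKR1A1 encodes aldehyde reductase, a general enzyme of most tissues. AKR1B1 encodes aldose reductase, which turns glucose into sorbitol, the entry step of the polyol pathway. AKR1B10 encodes a close relative that reduces retinal and lipid aldehydes, is normally found in the intestine, and is known for its high level in liver cancers. AKR1C1, AKR1C2 and AKR1C3 encode hydroxysteroid dehydrogenases. AKR1C1 is known for inactivating progesterone, AKR1C2 for inactivating dihydrotestosterone and binding bile acids, and AKR1C3 for forming testosterone and prostaglandin F. AKR1B10 and the AKR1C genes are known targets of NRF2, the transcription factor of the antioxidant response, encoded by NFE2L2.

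With apigenin, AKR1B1 rose by 24.4% and AKR1B10 fell by 14.7%, and the other 4 members did not pass the test. At an adjusted p under 0.05 in edgeR's quasi-likelihood test, 1 member was higher, where 2.76% of the 15173 tested genes were, and 1 was lower, where 4.22% were. Once the length trend described below was removed, the same counts of members stood beside 4.51% of genes higher and 5.46% lower. DESeq2 also called 1 member higher and 1 lower, beside 5.34 and 7.37% of the 12327 genes to which it gave an adjusted p. Limma on log2(FPKM + 1) called 1 higher and 0 lower, beside 2.8 and 2.41% of the 12592 genes it tested. The 6 genes together took 0.643, 0.622 and 0.692% of all counts in apigenin 1, 2 and 3, against 0.657, 0.696 and 0.689% in DMSO 1, 2 and 3. In bulk samples, less RNA per cell and fewer cells with the RNA cannot be told apart.

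Library totals ran from 33882145 to 37983636 counts, so each member rested on 1149 or more reads in each library. The labelled cell type was checked with liver markers. Of 16 such genes, 15 had a row, GPC3 had none, and all 15 averaged 1 CPM or more over the 6 libraries. ALB, which encodes albumin, stood at 52.9 CPM with apigenin and 123 with DMSO. The lowest were APOA1 (0.575 with apigenin and 1.48 with DMSO), TTR (1.53 and 2.91) and AHSG (2.06 and 2.38). The summed level of these 15 was 698 to 730 CPM with apigenin and 901 to 929 CPM with DMSO. Its largest part was TF (289 with apigenin and 341 with DMSO). Endothelial markers (5 genes) summed to 87.4 to 96.4 CPM with apigenin and 105 to 111 with DMSO, a sum carried by KDR (46.3 with apigenin and 55.7 with DMSO) and PECAM1 (44.3 with apigenin and 51 with DMSO), with CDH5 at 0.00983 with apigenin and 0.118 with DMSO. Fibroblast markers (8 genes, of which 7 were under 1 CPM) summed to 29.3 to 31.8 CPM with apigenin and 23.9 to 26.1 with DMSO. That sum was carried by LUM (29 with apigenin and 23.1 with DMSO), which edgeR called higher (adjusted p = 0.0313). Leukocyte markers (5 genes) summed to 86 to 95.5 CPM with apigenin and 87.4 to 95.1 with DMSO, a sum carried by CD68 (90 with apigenin and 89.1 with DMSO), with PTPRC at 0.124 with apigenin and 0.127 with DMSO. Biliary markers (4 genes) summed to 190 to 226 CPM with apigenin and 277 to 288 with DMSO. KRT19 averaged 156 with apigenin and 195 with DMSO, and SOX9 32.1 and 73.9. KRT7 (16.3 and 12.8) and EPCAM (0.191 and 0.171) went the other way. EdgeR called 0 of 15 liver markers higher and 5 lower, and 0 of 3 tested biliary markers higher and 2 lower. Over all tested genes edgeR called 2.76% higher and 4.22% lower. The part of all these markers in the results below was not tested. The apigenin libraries also differed in how levels followed gene length, with a slope of -0.071, -0.021 and -0.147 log2 units per doubling of length in apigenin 1, 2 and 3, against 0.001, -0.005 and 0.003 in DMSO 1, 2 and 3. The fold changes of the members are therefore also given with that trend removed.

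The aldose reductase gene AKR1B1 lies on chromosome 7 (134442350 to 134459239, GRCh38) and overlaps no other annotated gene. It had 878, 852 and 986 CPM in apigenin 1, 2 and 3, against 733, 725 and 727 CPM in DMSO 1, 2 and 3 (CPM, here with TMM scaling factors). Each apigenin library stood above each DMSO library, with apigenin 3 the highest, and the DMSO libraries lay within a few CPM of each other. Groups did not overlap in this direction for 14.4% of the tested genes. The mean was 906 ± 71.2 CPM with apigenin and 728 ± 4.5 CPM with DMSO (SD, n = 3 each), a log2 fold change of 0.32 ± 0.058 (SE), and edgeR gave an adjusted p = 0.00565. With the length trend removed AKR1B1 stood at 0.23 ± 0.037 (edgeR, adjusted p = 3.51e-04). It lost its call without DMSO 1 (0.32, adjusted p = 0.0535), DMSO 2 (0.31, adjusted p = 0.0509) or DMSO 3 (0.31, adjusted p = 0.0527), each by edgeR, and kept its direction under all 19 other settings (0.20 to 0.36, adjusted p of 3.30e-06 to 0.0948).

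Promoters were searched for the core of the element bound by the aryl hydrocarbon receptor, GCGTG, and for the core of the antioxidant response element bound by NRF2, TGACNNNGC, both on either strand. RefSeq windows of 300 bases (GRCh38.p14), 250 before and 50 after a gene's start, were on hand for 5 of the 6 members. AKR1B10 had no window and was not searched. Over all 35116 such windows 36.5% held GCGTG and 13.3% held TGACNNNGC. Of the 5 members searched, AKR1B1 was the one with a match to GCGTG, on the reverse strand, and none had a window with TGACNNNGC. The table holds 2 starts for AKR1B1, and the same match lies 74 bases before the outer one, which is the gene's annotated end on the minus strand, and 213 bases before the inner one. The bases before the outer start are shown because this gene rose, with the match in capitals (chr7:134459240-134459489, minus strand, 5′ to 3′).
AKR1B1: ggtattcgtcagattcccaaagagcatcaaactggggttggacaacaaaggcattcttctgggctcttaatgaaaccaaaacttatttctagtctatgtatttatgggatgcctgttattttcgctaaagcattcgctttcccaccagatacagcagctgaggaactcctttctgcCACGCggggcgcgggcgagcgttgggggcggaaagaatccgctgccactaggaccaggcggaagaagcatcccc
The matches are descriptions of these letters and not of binding.

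AKR1B10, on chromosome 7 (134527567 to 134541412), was the most abundant member per length. It had 3190, 3110 and 3510 CPM in apigenin 1, 2 and 3, against 3716, 3867 and 3915 CPM in DMSO 1, 2 and 3. Each apigenin library stood below each DMSO library, and the smallest gap was between apigenin 3 and DMSO 1. Groups did not overlap in this direction for 15% of the tested genes. The mean was 3270 ± 212 CPM with apigenin and 3830 ± 104 CPM with DMSO (SD, n = 3 each), a log2 fold change of -0.23 ± 0.051, with adjusted p = 0.0172 in edgeR. With the length trend removed AKR1B10 stood at -0.29 ± 0.033 (edgeR, adjusted p = 6.74e-06).

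Among all genes ranked by FPKM, reads per kilobase of gene scaled to the library total, AKR1B10 was number 28, 27 and 28 in apigenin 1, 2 and 3, and number 21, 22 and 22 in DMSO 1, 2 and 3. Its call was lost in edgeR without apigenin 1 (-0.21, adjusted p = 0.0924), DMSO 1 (-0.25, adjusted p = 0.0709), DMSO 2 (-0.22, adjusted p = 0.0934) or DMSO 3 (-0.21, adjusted p = 0.125). It was also lost with limma on log2(FPKM + 1) (adjusted p = 0.0681), while its direction was kept under all 19 other settings (-0.32 to -0.20, adjusted p of 5.00e-12 to 0.26). AKR1B15 is the neighbour of AKR1B10 and its closest relative among the genes compared. Their coding sequences matched at 886 of 1032 alignment columns (85.9%). Gaps count as mismatches here, and the AKR1B10 coding sequence has 948 bases, so the share among paired bases is higher. AKR1B15 averaged 43.3 ± 3.22 CPM with apigenin and 45.6 ± 5.35 CPM with DMSO (log2 fold change -0.07 ± 0.091, edgeR adjusted p = 0.678).

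**Figure D1:**
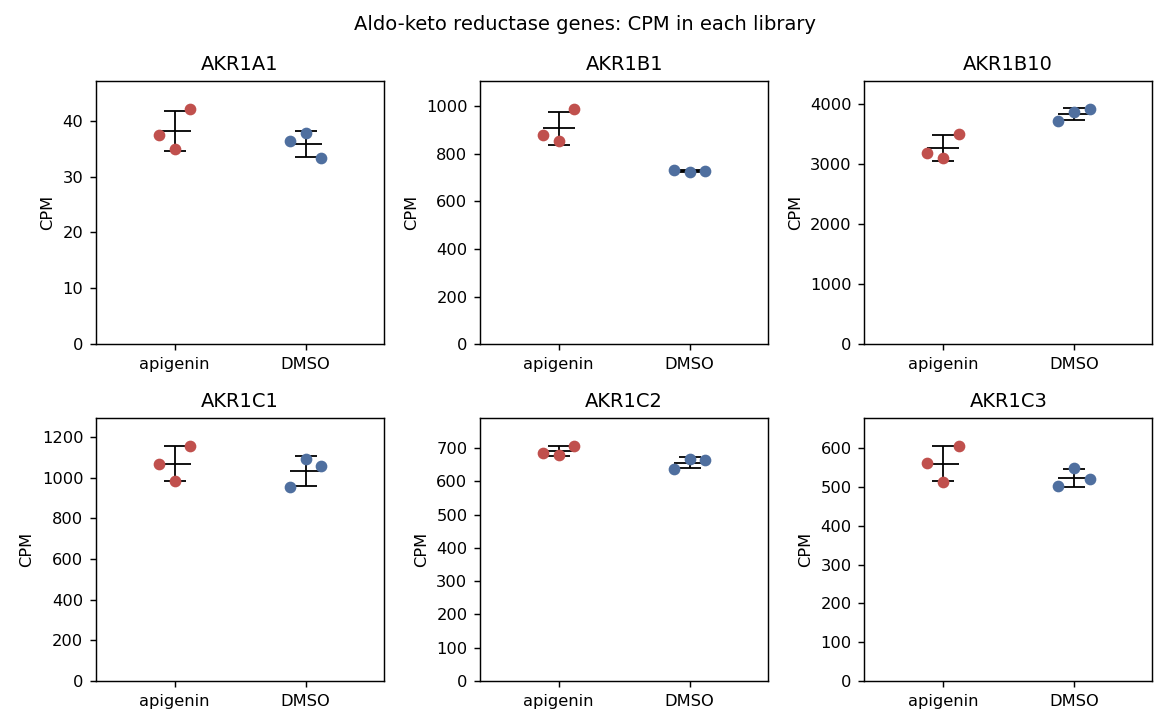
CPM of the 6 aldo-keto reductase genes (vertical axes, each from 0) in the 3 apigenin (left) and 3 DMSO libraries (right); points are libraries, and bars give the mean and SD. AKR1B1 shows the apigenin points (852 to 986) above the DMSO points (725 to 733), AKR1B10 shows them below, AKR1C2 shows them narrowly above, and AKR1A1, AKR1C1 and AKR1C3 overlap.

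The log2 ratio of AKR1B1 to AKR1B10 was -1.85 ± 0.020 with apigenin and -2.40 ± 0.048 with DMSO (SD, n = 3 each), a difference of 0.54. An exact two-sided permutation test of this ratio gave p = 0.1, the smallest that 3 samples against 3 allow, and adjusted p = 0.167 over the 15 pairs of members. Each apigenin library stood above each DMSO library for AKR1B1 and below each for AKR1B10. The ratio therefore had to separate the groups, and its p-value adds no support to the result of either gene. Among AKR1A1, AKR1C1, AKR1C2 and AKR1C3, the log2 ratios of all 6 pairs overlapped between the groups, with differences of -0.047 to 0.041. The design cannot reach 0.05 in this test.

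The steroid-reducing members lie side by side on chromosome 10, with AKR1C1 at 4963415 to 4983283, AKR1C2 at 4987775 to 5018000 and AKR1C3 at 5048781 to 5107686. They are close copies. Identity is given over all alignment columns, gaps included. The coding sequences of AKR1C1 and AKR1C2 were identical at 98% of columns, AKR1C1 and AKR1C3 at 91.4%, and AKR1C2 and AKR1C3 at 91%. By contrast AKR1B1 and AKR1B10 shared 76.1%, and AKR1A1 shared 53.6 to 60.3% with the other 5. The 250 bases before the starts of AKR1C1 and AKR1C2 aligned with 96.5% identity, and those of AKR1C1 and AKR1C3 with 71.4%. They are shown so that the copies can be compared (GRCh38.p14, 5′ to 3′, chr10:4963165-4963414 plus strand for AKR1C1, chr10:5003858-5004107 minus strand for AKR1C2, and chr10:5048531-5048780 plus strand for AKR1C3, the farther upstream of its 2 windows). The AKR1C2 start used by the table lies inside the gene span given above. No capitals appear because neither motif matched.
AKR1C1: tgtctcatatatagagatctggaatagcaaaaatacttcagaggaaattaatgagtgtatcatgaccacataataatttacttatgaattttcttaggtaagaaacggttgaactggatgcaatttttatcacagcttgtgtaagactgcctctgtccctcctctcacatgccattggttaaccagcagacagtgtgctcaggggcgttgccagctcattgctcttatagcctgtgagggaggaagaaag
AKR1C2: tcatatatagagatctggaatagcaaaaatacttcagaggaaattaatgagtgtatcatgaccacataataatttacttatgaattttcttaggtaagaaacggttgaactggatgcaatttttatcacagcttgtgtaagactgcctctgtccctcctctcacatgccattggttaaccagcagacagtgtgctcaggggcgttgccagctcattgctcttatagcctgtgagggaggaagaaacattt
AKR1C3: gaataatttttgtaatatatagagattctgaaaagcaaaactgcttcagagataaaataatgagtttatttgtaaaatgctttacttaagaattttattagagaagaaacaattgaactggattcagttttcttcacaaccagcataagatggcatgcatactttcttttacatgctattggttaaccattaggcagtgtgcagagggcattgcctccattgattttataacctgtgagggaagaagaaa

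How far reads could be placed was measured on GENCODE 29 transcripts, since no label gives the read length. For each gene 1 transcript was used, the one with the longest coding sequence and, among ties, the longest. It had 6705 nucleotides for AKR1C1 and 3756 for AKR1C2, of which 969 were coding in each. The shares are over whole transcripts and were not measured for the coding part alone. Of all stretches of 100 nucleotides in the AKR1C2 transcript, 32.9% occurred letter for letter in another gene, against 17.4% for AKR1C1, 5% for AKR1C3, 2% for AKR1B10 and 0% for AKR1A1 and AKR1B1. At 150 nucleotides the shares were 21.2% for AKR1C2, 11.3% for AKR1C1 and 1.3% for AKR1C3, and 0% for the other 3. At 50 nucleotides they were 52.2% for AKR1C2, 28.7% for AKR1C1, 17.7% for AKR1B10, 12.1% for AKR1C3 and 4.8% for AKR1B1. AKR1C1 and AKR1C2 had 1136 stretches of 100 nucleotides in common, which were 17.2% of all those in AKR1C1 and 31.1% of all those in AKR1C2. The labels do not say how reads that matched several genes were counted, so the split between AKR1C1 and AKR1C2 is uncertain. AKR1C3 also overlaps the non-coding gene LOC107984198, which had 8975 reads over the 6 libraries beside 116292 for AKR1C3.

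**Figure D2:**
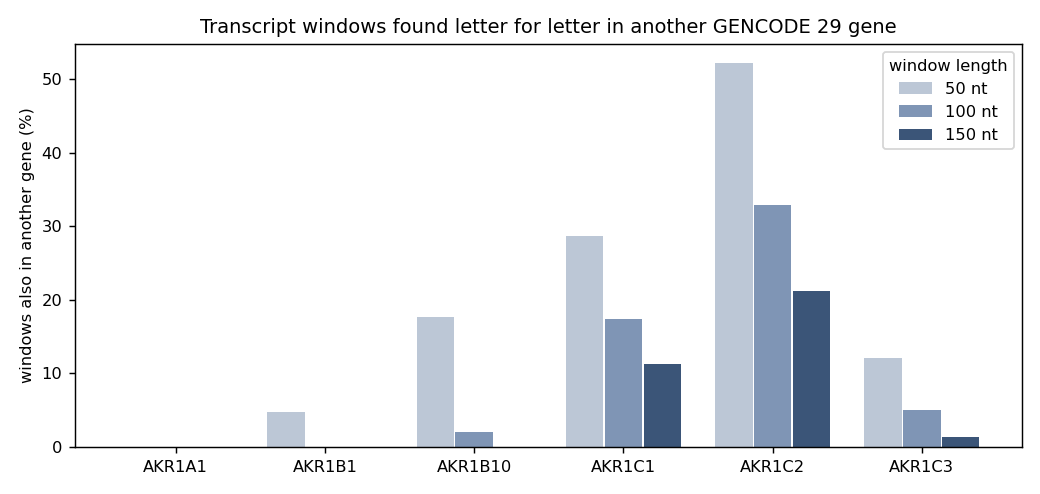
Share of stretches of 50, 100 or 150 nucleotides (bars, from left to right) of each member's GENCODE 29 transcript that occur letter for letter in another gene (vertical axis, percent). AKR1C2 is highest at each length (52.2, 32.9 and 21.2%), followed by AKR1C1, and AKR1A1 has none.

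None of the AKR1C genes passed edgeR's test, at unadjusted p values of 0.479 for AKR1C1, 0.151 for AKR1C2 and 0.151 for AKR1C3. AKR1C1 had 1068, 981 and 1156 CPM in apigenin 1, 2 and 3, against 952, 1092 and 1056 CPM in DMSO 1, 2 and 3. Apigenin 2 lay below DMSO 2 and DMSO 3, so the groups overlapped. The log2 fold change of AKR1C1 was 0.05 ± 0.066, with a 95% interval of -0.09 to 0.19 and an edgeR adjusted p = 0.712. It turned slightly negative without apigenin 3 (-0.01, edgeR adjusted p = 0.931) or DMSO 1 (-0.01, edgeR adjusted p = 0.971). With the length trend removed it was 0.12 (edgeR adjusted p = 0.258), and with apigenin 2 also left out it passed (0.21, edgeR adjusted p = 0.0108). More genes were called under that last setting, 966 higher and 994 lower, against 419 and 641 with all libraries and the trend kept.

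AKR1C2 had 686, 679 and 706 CPM in apigenin 1, 2 and 3, against 637, 668 and 663 CPM in DMSO 1, 2 and 3. The apigenin libraries stood above the DMSO libraries by a narrow margin, and groups did not overlap in this direction for 14.4% of the tested genes. The log2 fold change was 0.07 ± 0.049 (95% interval -0.03 to 0.18), with an edgeR adjusted p = 0.38, and 0.07 with the length trend removed (edgeR adjusted p = 0.291). AKR1C3 had 561, 514 and 606 CPM in apigenin 1, 2 and 3, against 503, 549 and 521 CPM in DMSO 1, 2 and 3. Its groups overlapped, with apigenin 2 below DMSO 2 and DMSO 3, and its log2 fold change was 0.10 ± 0.063 (95% interval -0.04 to 0.23, edgeR adjusted p = 0.38). With the length trend removed AKR1C3 stood at -0.005 ± 0.040 (edgeR adjusted p = 0.966), a change of sign.

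The sum of the 3 genes does not depend on how counted reads were split among them, but it misses any read dropped for matching several genes. Whether such reads were dropped is not in the labels. The sum was 2316, 2174 and 2468 CPM in apigenin 1, 2 and 3, against 2091, 2310 and 2239 CPM in DMSO 1, 2 and 3, and the groups overlapped. Refitted with the 3 rows replaced by their sum, the log2 fold change was 0.07 ± 0.055 (95% interval -0.05 to 0.19, edgeR adjusted p = 0.493), and 0.08 with the length trend removed (edgeR adjusted p = 0.316). It passed under 1 of the 19 other settings, with the length trend removed and apigenin 2 left out (0.14, edgeR adjusted p = 0.0352). In the fit of single genes that setting called 966 genes higher and 994 lower.

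Within this sum, AKR1C1 gave 46.1, 45.1 and 46.8% of it in apigenin 1, 2 and 3, against 45.5, 47.3 and 47.2% in DMSO 1, 2 and 3. AKR1C2 gave 29.6, 31.2 and 28.6% with apigenin, against 30.5, 28.9 and 29.6% with DMSO, and AKR1C3 gave 24.22, 23.65 and 24.56% with apigenin, against 24.04, 23.78 and 23.26% with DMSO. The groups overlapped for each gene, and exact two-sided permutation tests gave p = 0.5 for AKR1C1, p = 0.9 for AKR1C2 and p = 0.3 for AKR1C3. The mean shares differed by -0.626 percentage points for AKR1C1, 0.174 for AKR1C2 and 0.451 for AKR1C3, apigenin minus DMSO. With 1 library left out in turn the difference ran from -1.2 (without DMSO 1) to -0.17 (without apigenin 2) for AKR1C1, from -0.531 (without apigenin 2) to 0.781 (without apigenin 3) for AKR1C2 and from 0.235 (without DMSO 3) to 0.7 (without apigenin 2) for AKR1C3.

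AKR1A1, on chromosome 1 (45550826 to 45570049), was the least abundant member. It had 37.4, 34.9 and 42.1 CPM in apigenin 1, 2 and 3, against 36.3, 37.9 and 33.3 CPM in DMSO 1, 2 and 3, and the groups overlapped. Its log2 fold change was 0.09 ± 0.086 (95% interval -0.09 to 0.27, edgeR adjusted p = 0.568), and it was -0.03 with the length trend removed (edgeR adjusted p = 0.832). Apigenin 1, 2 and 3 stood at 0.065, -0.034 and 0.234 log2 units from the DMSO mean. The trend at this gene's length of 1582 nucleotides was 0.106, 0.026 and 0.23 in the same libraries. Whether the trend accounts for these levels was not tested.

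**Figure D3:**
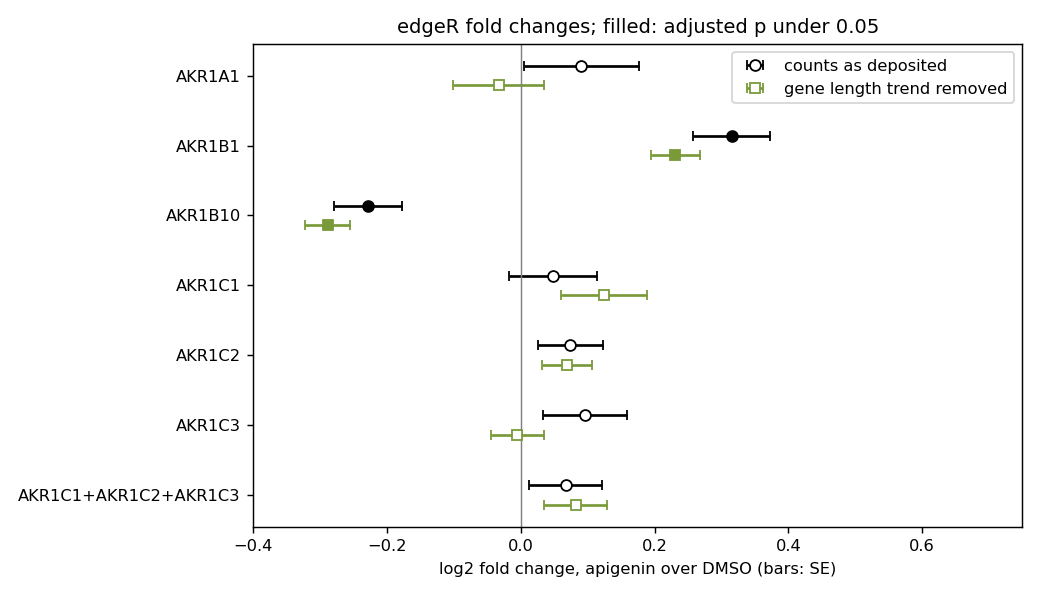
Log2 fold change, apigenin over DMSO (horizontal axis; bars are the SE of the edgeR fit), of the 6 members and of the summed AKR1C genes, from the deposited counts and with each library's length trend removed. Filled symbols mark an adjusted p under 0.05, reached by AKR1B1 (0.32 and 0.23) and AKR1B10 (-0.23 and -0.29), while AKR1A1 and AKR1C3 change sign when the trend is removed.

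Per length, the group means of the members stood in the same order in both groups. AKR1B10 came highest, at 1240 ± 66.8 FPKM with apigenin and 1450 ± 38.8 FPKM with DMSO (SD, n = 3 each). AKR1B1 followed at 410 ± 27.9 FPKM with apigenin and 330 ± 2.01 FPKM with DMSO, so that AKR1B10 stood 3.02 times above AKR1B1 with apigenin and 4.39 times with DMSO. AKR1C3 had 290 ± 20.8 FPKM with apigenin and 272 ± 12.7 FPKM with DMSO. AKR1C2 had 167 ± 1.63 FPKM with apigenin and 159 ± 4.19 FPKM with DMSO, and AKR1C1 had 163 ± 11.6 FPKM with apigenin and 158 ± 11.3 FPKM with DMSO. These 2 genes overlapped in range in both groups and could not be ordered. AKR1A1 was lowest at 24.1 ± 2.03 FPKM with apigenin and 22.6 ± 1.54 FPKM with DMSO. All other neighbours in this order had ranges that did not overlap. The order rests on the gene lengths behind the FPKM, of 6543 nucleotides for AKR1C1, 4123 for AKR1C2 and 1927 for AKR1C3. By read count AKR1C1 stood above AKR1B1, AKR1C2 and AKR1C3 in each library.

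**Figure D4:**
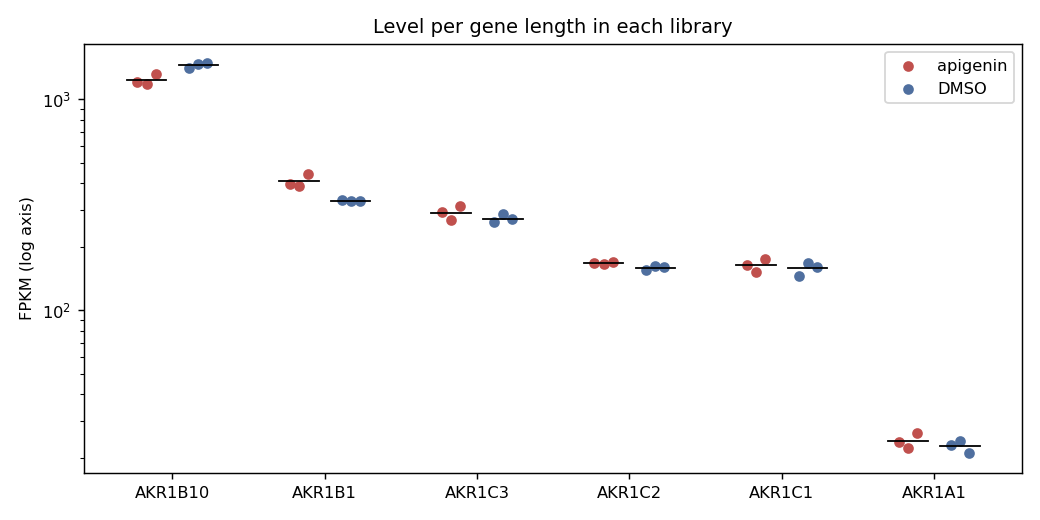
FPKM of each member (log vertical axis) in the 3 apigenin (left, red) and 3 DMSO (right, blue) libraries; points are libraries and lines are means. AKR1B10 lies between 1188 and 1478 FPKM, AKR1C2 and AKR1C1 overlap, and AKR1A1 lies between 21 and 26.3 FPKM.

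Of 12 further family genes listed, 10 had a row and 9 were tested, of which 1 rose (KCNAB1) and 0 fell. Among all tested genes 2.76% rose and 4.22% fell in edgeR. An unadjusted p under 0.05 in edgeR was reached by 1 of the 9, and by 3697 of all 15173 tested genes. The median log2 fold change of the 9 was -0.04, beside 0.00 over all tested genes. KCNAB1, which encodes a potassium channel subunit with an aldo-keto reductase fold, had 2.12, 2.27 and 3.48 CPM in apigenin 1, 2 and 3, against 0.807, 1.1 and 1.51 CPM in DMSO 1, 2 and 3. Its log2 fold change was 1.21 ± 0.324 (edgeR adjusted p = 0.04), and the call was lost without apigenin 1, apigenin 3, DMSO 1, DMSO 2 or DMSO 3 (edgeR adjusted p of 0.0785, 0.109, 0.162, 0.13 and 0.0605). AKR1C4, a liver enzyme of bile acid synthesis, averaged 5.03 ± 1.75 CPM with apigenin and 4.75 ± 1.04 CPM with DMSO. AKR1D1, the steroid reductase of bile acid synthesis, had 1, 0 and 0 reads with apigenin and 2, 5 and 0 with DMSO. AKR7A2 and AKR7A3, aldehyde reductases, averaged 20.1 and 9.03 CPM with apigenin and 18.8 and 9.47 CPM with DMSO. AKR1E2 averaged 3.2 CPM with apigenin and 3.27 with DMSO, and AKR1C8 0.378 with apigenin and 0.341 with DMSO. The channel subunit genes KCNAB2 and KCNAB3 averaged 42.5 and 0.421 CPM with apigenin and 45.9 and 0.8 CPM with DMSO.

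Of 9 genes of NRF2 and its regulators tested, 3 rose and 6 did not pass, with a median log2 fold change of 0.23. Over all tested genes edgeR called 2.76% higher and 4.22% lower, and these shares also stand beside the lists that follow. NFE2L2, which encodes NRF2 itself, had 132, 140 and 136 CPM in apigenin 1, 2 and 3, against 95.3, 92.8 and 103 CPM in DMSO 1, 2 and 3 (log2 fold change 0.49 ± 0.061, edgeR adjusted p = 3.94e-04). Its partner genes MAFF and MAFG rose by 0.67 ± 0.125 and 0.23 ± 0.055 on the log2 scale. KEAP1, which encodes the protein that marks NRF2 for breakdown, had a log2 fold change of 0.30 ± 0.106 and did not pass (edgeR adjusted p = 0.097). Of 23 other NRF2 targets tested, 4 rose, 0 fell and 19 did not pass, with a median of 0.05. An unadjusted p under 0.05 was reached by 14 of the 23, of which ABCC2, ABCC3, GPX2 and ME1 had negative fold changes, and by 3697 of all 15173 tested genes. DESeq2 called 7 of the 23 higher and 2 lower, beside 5.34 and 7.37% of the 12327 genes to which it gave an adjusted p. After removal of the length trend 4.51% of all tested genes were higher and 5.46% lower. Of the 23 targets 5 were then higher (OSGIN1, HMOX1, SRXN1, TXNRD1 and GCLM) and 5 were lower, with a median of 0.009. Those lower were GPX2 (-0.31), ME1 (-0.18), ABCC3 (-0.14), UGDH (-0.14) and FTL (-0.09), named after their values were seen. OSGIN1 rose by 0.36 ± 0.072, the heme oxygenase gene HMOX1 by 0.31 ± 0.057, the sulfiredoxin gene SRXN1 by 0.28 ± 0.050 and the thioredoxin reductase gene TXNRD1 by 0.18 ± 0.042. NQO1, a quinone reductase gene, had 0.14 ± 0.055 (edgeR adjusted p = 0.15), and GCLM, of glutathione synthesis, had 0.15 ± 0.050 (edgeR adjusted p = 0.0859).

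Of 17 other carbonyl and aldehyde enzymes tested, 2 rose, 1 fell and 14 did not pass, with a median log2 fold change of 0.08. DHRS9, a retinol and steroid dehydrogenase gene, had 149, 149 and 163 CPM in apigenin 1, 2 and 3, against 111, 102 and 103 CPM in DMSO 1, 2 and 3 (0.54 ± 0.062, edgeR adjusted p = 1.85e-04). The alcohol dehydrogenase gene ADH1C had 47.4, 47.1 and 48.1 CPM with apigenin, against 77, 79.9 and 80.2 CPM with DMSO (-0.73 ± 0.062, edgeR adjusted p = 9.48e-06). CBR1, a carbonyl reductase gene that also reduces prostaglandins, rose by 0.27 ± 0.065. Of 6 other genes of the polyol pathway and glucose supply, 1 rose, the glucose transporter gene SLC2A1 (0.56 ± 0.059, edgeR adjusted p = 9.72e-05). SORD, which encodes the sorbitol dehydrogenase that acts after aldose reductase and is named after its values were seen, had -0.18 ± 0.065 (edgeR adjusted p = 0.107).

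Of 13 prostaglandin genes tested, 1 rose (CBR1), 1 fell and 11 did not pass. The one that fell was HPGD, which encodes a prostaglandin-inactivating dehydrogenase (-0.32 ± 0.062, edgeR adjusted p = 0.00874). In edgeR 0 of 14 retinoid genes and 0 of 15 steroid and bile acid genes tested passed, with 1 and 3 at an unadjusted p under 0.05. DESeq2 called 1 gene higher in each of these lists, and limma on log2(FPKM + 1) called 0 in each. All 13 related genes called in these lists and among the further family genes also passed in edgeR after removal of the length trend, by which CUL3 (0.20), ALDH2 (0.30), ALDH3A1 (0.21) and DHRS3 (0.18) were also called higher and SQSTM1 (-0.11) and HSD17B7 (-0.46) lower, beside the NRF2 targets given above. Of the 13, NFE2L2, ADH1C, DHRS9 and SLC2A1 passed under all 19 other settings and 9 did not. Without 1 library, the edgeR adjusted p of the 9 rose to at most 0.157 for MAFG, 0.0473 for MAFF, 0.068 for HMOX1, 0.0798 for OSGIN1, 0.0574 for SRXN1, 0.147 for TXNRD1, 0.155 for CBR1, 0.0882 for HPGD and 0.162 for KCNAB1. MAFF lost its call in limma on log2(FPKM + 1) without a filter.

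The genes whose pattern over the 6 libraries was most like that of each called member were sought among 10706 candidates that averaged at least 5 CPM, as the smallest root mean square difference in centred log2 CPM. For AKR1B1 these were CCDC90B (0.021), BRMS1 (0.025) and TIMM17A (0.026), with log2 fold changes of 0.32, 0.28 and 0.32. For AKR1B10 they were PLEKHF2 (0.027), PITPNC1 (0.030) and CYP4V2 (0.030), with log2 fold changes of -0.19, -0.25 and -0.25, none of which passed in edgeR (adjusted p of 0.116, 0.133 and 0.172).

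**Figure D5:**
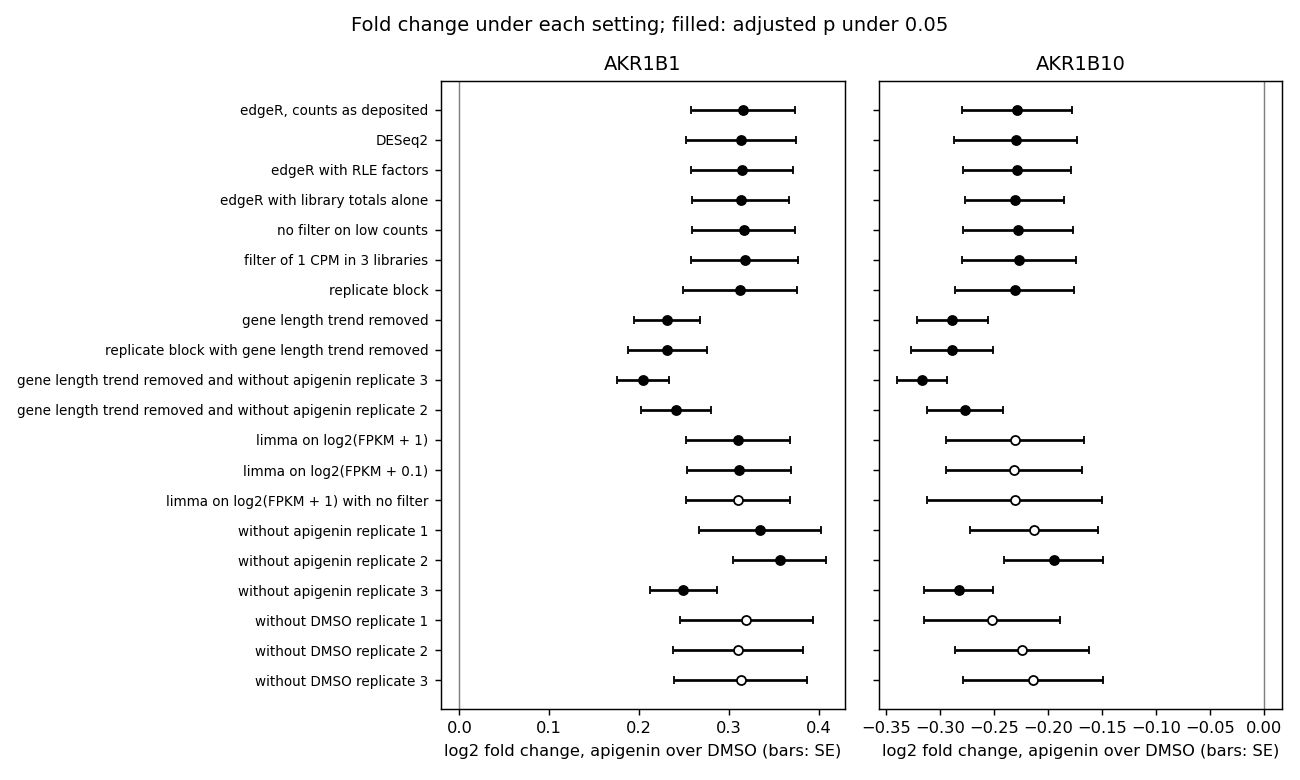
Log2 fold change, apigenin over DMSO (horizontal axes; bars are SE), of AKR1B1 (left) and AKR1B10 (right) from the deposited counts and under 19 other settings; filled points have an adjusted p under 0.05. AKR1B1 stays between 0.20 and 0.36 and AKR1B10 between -0.32 and -0.20, while open points mark the settings without a call, among them each DMSO library left out.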

How the data were processed

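Total RNA of 6 HCC-LM3 samples was made into libraries, per the labels' protocols. The tools named are fastp, HISAT2 and HTSeq, on GRCh38, per the submitters' processing notes, without versions or a strand setting. The authors deposited read counts per gene symbol and FPKM for each sample. The deposited FPKM equal count over gene length and library total for 100% of values above 0 (to within 0.0001 of the value), which gave the gene lengths. Groups follow the titles, and the members and lists were chosen with earlier results of these data known.

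Counts were tested with edgeR 4.0.16 (R 4.3.3), TMM factors, the default low-count filter (15173 genes) and Benjamini-Hochberg adjustment over all tested genes. The SE is the log2 fold change over the root of F. The length trend was a lowess (span 0.3) on log2 length, removed as offsets. Alternatives used DESeq2 1.42.0 and limma 3.58.1. The steps were also run on simulated data, and the recovery of changes as small as those of the members is not given here. Coding sequences, used in place of the protein comparison first planned, and promoters were aligned globally with Biopython 1.88. Positions and promoters are from RefSeq, transcripts from GENCODE 29. Named genes were all 6 members, all further family genes with a row, up to 4 called genes per list, and 6 fixed NRF2 genes. Outside this rule, SORD and list genes called only with the length trend removed, or only at an unadjusted p under 0.05, were named after their values were seen. Cell type markers given singly also fall outside it. Ratios between members were added after the levels were seen. A count of 0 in a library allows up to 0.079 to 0.0885 CPM (3 counts, counting error only). Replicates differed by more than counting noise (chi-square per degree of freedom from 4.35 to 27.5).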

Additional observations from a re-analysis of the deposited data

How the results depend on the processing

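AKR1B1 and AKR1B10 kept their direction under all 19 settings. Leaving out each library gave log2 fold changes of 0.249 to 0.356 for AKR1B1, -0.283 to -0.195 for AKR1B10, -0.012 to 0.105 for AKR1C1, and 0 to 1 members called in each direction. AKR1B10 was not called by limma on log2(FPKM + 1) (-0.231, adjusted p = 0.0681), on log2(FPKM + 0.1) (-0.232, adjusted p = 0.0662) or without a filter (-0.231, adjusted p = 0.26), which left 0 members lower. Without that filter AKR1B1 also lost its call (0.31, adjusted p = 0.0948), which left 0 higher. With the length trend removed, AKR1A1 stood at -0.033 and AKR1C3 at -0.005. With the replicate block as well they stood at -0.031 and -0.004, and without apigenin 3 as well at -0.052 and -0.019. With the trend removed and apigenin 2 left out, AKR1A1 stood at -0.019, while AKR1C1 (0.209) and the AKR1C sum (0.137) were called, so that 2 members were higher. Over all genes that setting called 966 higher and 994 lower, against 419 and 641 with all libraries and the trend kept. The AKR1C2 share difference became -0.0219 percentage points by FPKM and ran from -0.531 to 0.781 with a library left out. The causes were not tested.

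Same-numbered samples did not deviate together (correlations of -0.017, -0.019 and -0.048). The replicate block moved AKR1B1 to 0.312 and AKR1B10 to -0.231 and changed no member's call. Over all genes, 419 were higher and 641 lower, against 658 and 909 by DESeq2, 865 and 1096 without a low-count filter, 685 and 828 with the trend removed, 352 and 303 by limma on log2(FPKM + 1), 78 and 60 by limma without a filter, and 103 to 1344 higher and 157 to 1546 lower with a library left out.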
